A study of Mus musculus with 74 samples.

Results

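The 9 genes described here encode proteins reported to bind AIRE or to help it switch on transcription: Sirt1, Top1, Top2b, Prkdc, Hipk2, Mbd1, Atf7ip, Cdk9 and Chd6. They were chosen by gene symbol, and they are 9 of the 17853 genes listed in at least 1 of 6 count tables. All 9 are listed in each table, and 14637 genes are. The tables hold bulk MARS-seq libraries, which count tags from transcript 3′ ends, made from sorted mTEChi of mice aged 4 to 7 weeks with mutant alleles of Aire. mTEChi are the epithelial cells of the thymic medulla with high MHC class II, and they are the main source of AIRE. Of 74 libraries, 73 fell into 21 groups, and 1 was left out because its title and its genotype label disagree.

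Mice of 2 strains were used. On C57BL/6, written B6 here, 4 lines each had a wild type (Aire +/+) of their own. The null line comprised 3 Aire +/+, 5 Aire +/- and 4 Aire -/- libraries. The Y86C line comprised 3 Aire +/+, 3 Aire +/Y86C and 3 Aire Y86C/Y86C libraries. For C313X there were 3 Aire +/+, 2 Aire +/C313X and 3 Aire C313X/C313X libraries, and for C442G 3 Aire +/+, 5 Aire +/C442G and 6 Aire C442G/C442G libraries. On NOD, V303M had 3 Aire +/+, 3 Aire +/V303M and 3 Aire V303M/V303M libraries. A last NOD table held 3 Aire +/- and 3 Aire -/- libraries without a wild type of their title form, 4 Aire +/C313Y libraries with 5 Aire +/+ libraries, and 3 Aire -/C313Y libraries with 3 other Aire +/+ libraries. Of those 5 wild types, 2 are titled C313T. Y86C lies in the CARD through which AIRE forms multimers, V303M and C313Y change the first PHD finger, and C442G changes the second PHD finger. C313X also lies in the first PHD finger. In such names X stands for a stop codon, and the labels do not say what protein C313X leaves. What the null allele lacks is not given in the labels, nor is whether libraries of a group came from separate mice, so the p-values measure the spread between these libraries, which may be technical.

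AIRE is a nuclear protein that makes mTEChi transcribe genes typical of other organs, so that developing T cells meet those self antigens in the thymus. It has no strong sequence preference and relies on partners: readers of methylated DNA that place it on silent genes, topoisomerases and DNA-dependent protein kinase that make and sense DNA breaks, remodellers that open chromatin, and the pause release kinase that frees stalled RNA polymerase. Other partners act on AIRE itself, as SIRT1 removes acetyl groups from its lysines and HIPK2 adds phosphate. The comparisons below ask whether transcripts of these partners stand at other levels in mTEChi with mutant AIRE than in wild-type mTEChi.

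Sirt1 and Chd6 were the members called in most comparisons, so their promoters are printed here, 250 bases before to 50 after the RefSeq start, from RefSeq on GRCm38.p6, 5′ to 3′ on the minus strand. Capitals mark the E-box CACGTG, the GC box GGGCGG on either strand and the CCAAT box.
Sirt1, chr10:63338986-63339285: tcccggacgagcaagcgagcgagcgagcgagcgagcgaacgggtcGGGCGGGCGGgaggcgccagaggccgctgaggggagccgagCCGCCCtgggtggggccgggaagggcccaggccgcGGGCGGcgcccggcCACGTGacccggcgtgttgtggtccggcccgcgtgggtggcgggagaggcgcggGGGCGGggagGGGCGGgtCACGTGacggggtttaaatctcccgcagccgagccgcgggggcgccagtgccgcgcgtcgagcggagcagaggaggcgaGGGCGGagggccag
Chd6, chr2:161109037-161109336: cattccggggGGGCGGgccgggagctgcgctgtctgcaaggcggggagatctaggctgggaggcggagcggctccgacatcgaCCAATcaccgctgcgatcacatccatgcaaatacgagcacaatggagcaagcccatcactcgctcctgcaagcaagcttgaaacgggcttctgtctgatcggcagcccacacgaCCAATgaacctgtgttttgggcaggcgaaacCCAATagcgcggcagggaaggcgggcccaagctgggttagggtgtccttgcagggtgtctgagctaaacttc
The Sirt1 window held 2 E-boxes, 7 GC boxes of which a pair overlap, and 47 CpG dinucleotides, at 79.0% G and C. The Chd6 window held 1 GC box, 3 CCAAT boxes and 20 CpG dinucleotides, at 61.0% G and C. Among 32851 promoter windows of 300 bases, 7.15% held the E-box, 35.7% the GC box, 37.4% the CCAAT box and 13.6% the TATA box TATAAA, both strands searched, and no TATAAA was found in either window. The table holds 7 of the 9 genes, and Top1 (1 E-box and 3 GC boxes) was the other one with an E-box. In GENCODE M21 Sirt1 lies on chromosome 10 from 63319005 to 63381704, so the RefSeq window falls inside the annotated gene, and Chd6 lies on chromosome 2 from 160946978 to 161109075, both on the minus strand.

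The libraries held 1016619 to 7225403 counts. Levels below are CPM, a gene's counts scaled to the library's total. Of 100 pairs of replicates, none came as close as sampling noise alone allows (chi-square per gene 2.09 to 17.6). Aire, checked first as the altered gene, rose in all homozygotes but V303M/V303M (0.29 ± 0.13, adjusted p = 0.798), by 0.68 ± 0.14 (log2 change ± SE) in B6 Aire -/-, 1.32 ± 0.08 in Y86C/Y86C and 1.09 ± 0.24 in C313X/C313X, so its 3′ tags do not check the genotypes. Markers of mTEChi were plentiful, with 12 of 12 listed in each table and a sum of at least 39789 CPM in each library, while 10 or 11 listed thymocyte markers summed to at most 218 CPM. The wild-type C313X library numbered 6 stood apart from the other libraries in Sirt1 and Top2b. Fitted changes of these genes in the text that rest on it are given with and without it. Counts of cell type markers and correlations are given with it only.

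Calls rest on edgeR's quasi-likelihood test of the counts, with p adjusted after Benjamini and Hochberg across every gene tested and a threshold of 0.05. Over 8 comparisons that share no library (the homozygotes of 5 lines, NOD Aire -/- against Aire +/-, and +/C313Y and -/C313Y), Sirt1 was above its control in 8 and called higher in 6. Chd6 was above its control in 8 and called higher in 4. Prkdc, called lower in 2, was the other member called in these comparisons. Of 11852 genes tested in all 8, 11.5% were above 0 in all of them, 3.78% were called higher in at least 6 and 10.2% in at least 4. Top1, Top2b, Mbd1 and Atf7ip were called in none, as were 33.6% of those genes, nor was Hipk2 in the 7 where it passed the filter on low counts. Cdk9 passed the filter in none of the 6 tables.

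**Figure D1:**
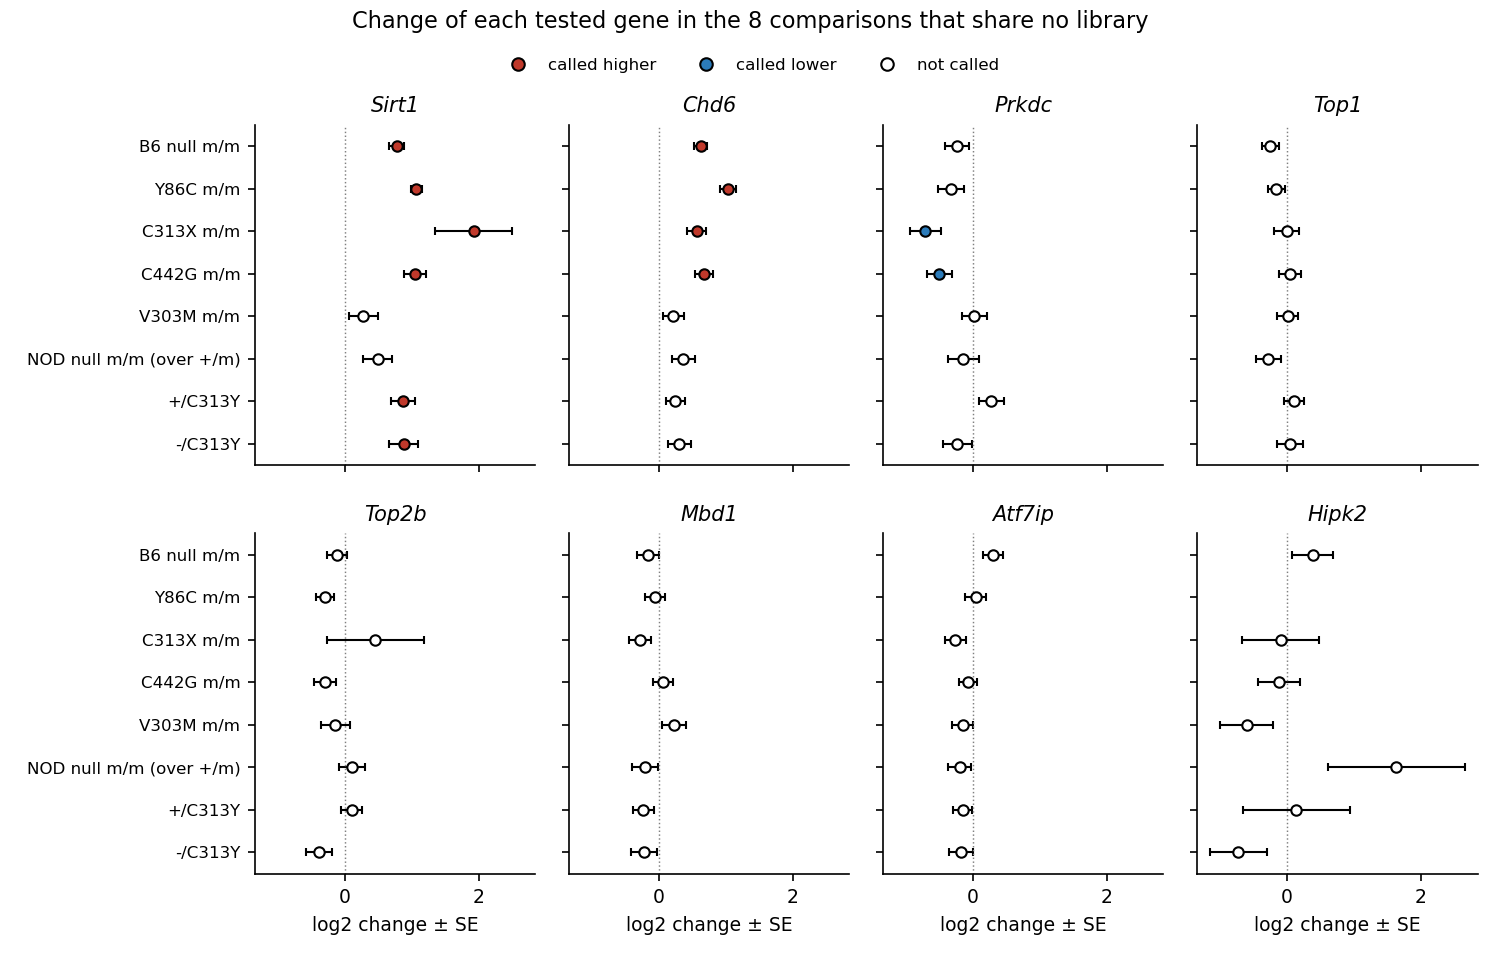
Each panel shows for 1 gene the log2 change (horizontal axis, point) with its SE (bar) in the 8 comparisons that share no library; m/m is the homozygous mutant, all but 1 comparison are against wild type, and filled points passed an adjusted p under 0.05. Sirt1 and Chd6 lie to the right of 0 in every row, Prkdc lies left of 0 in 6 of 8, and Hipk2 has the widest bars.

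Averaged over the 4 B6 lines in 1 joint fit, homozygotes held 2.39-fold more Sirt1 than wild types (log2 change 1.26 ± 0.14, adjusted p = 2.36e-09) and 1.71-fold more Chd6 (0.77 ± 0.07, adjusted p = 5.72e-15). Prkdc fell by 0.38 ± 0.10 on the log2 scale in that mean (adjusted p = 0.00101). So 2 of the 9 members were called higher against 32% of all genes, and 1 called lower against 32.3%, and the median of the 9 changes was 0.01 against 0.02 over all genes: the counts alone do not set the members apart. Without the C313X wild-type library numbered 6 the Sirt1 mean was 1.11 ± 0.09. Without the whole C313X line it was 1.01 ± 0.16 (edgeR adjusted p = 1.25e-06). In the same mean, 11 of 12 mTEChi markers rose and 8 of 10 measured proliferation markers fell. Of markers of other cell types, 2 rose and 4 fell of 10 for thymocytes, 3 and 5 of 8 for myeloid and dendritic cells, 1 and 0 of 3 for B cells, 2 and 1 of 6 for cortical epithelium and 2 and 1 of 4 for fibroblasts and endothelium. Their part in the changes of the members was not tested. In bulk RNA, fewer cells of a type and less RNA per cell cannot be told apart.

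Sirt1 encodes a nuclear NAD-dependent deacetylase that is needed in mTEC for AIRE-dependent transcription. In the B6 null line its level was 181, 182 and 208 CPM in the wild types, 153, 194, 207, 221 and 238 in Aire +/-, and 282, 283, 310.3 and 343 in Aire -/-. Homozygous libraries lay above all others of the line, and the heterozygotes spread over the wild types on both sides. For 9.37% of genes Aire -/- lay apart and above Aire +/-. In the Y86C line the level was 254, 255 and 266 CPM in wild types, 280.1, 285 and 319.9 in +/Y86C and 442.4, 454 and 475 in Y86C/Y86C. Here the 3 genotypes formed 3 separate ranges. In this line +/Y86C lay apart and above wild types for 7.83% of genes, and Y86C/Y86C above +/Y86C for 11.7%.

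In the C442G line Sirt1 stood at 143, 175 and 251 CPM in wild types and at 203, 271, 305, 324 and 334 in +/C442G. Its C442G/C442G libraries ran from 281 over a median of 337 to 414 CPM, above every wild type. In the C313X line it stood at 10.1, 57.01 and 67.0 CPM in wild types, 81.7 and 109 in +/C313X, and 111, 131 and 196 in C313X/C313X. The 3 genotypes did not overlap there, but the whole line lay low: its group means of 44.7, 95.5 and 146 CPM were among the 4 lowest of the 21. In this line +/C313X lay apart and above wild types for 9.56% of genes, and C313X/C313X above +/C313X for 11.9%.

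The homozygous change of Sirt1 was 0.77 ± 0.11 in the null line (adjusted p = 4.63e-06), 1.07 ± 0.09 for Y86C (1.01e-11) and 1.05 ± 0.16 for C442G (8.89e-06), each by edgeR. For C313X it was 1.93 ± 0.57 (adjusted p = 0.0453), a call that was lost under 6 of 10 other settings, with an adjusted p of up to 0.0837. Without the library at 10.1 CPM, which rests on 34 counts, the C313X change was 1.39 ± 0.24 (adjusted p = 0.00148). Genes called higher made up 17.7% of those tested in the null line, 21.7% for Y86C, 7.82% for C313X and 19.5% for C442G, and the CPM ranges of 15.4%, 15%, 10.3% and 11.2% lay apart and higher as those of Sirt1 and Chd6 did.

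With 1 mutant copy on B6, Sirt1 was called in +/C442G (0.71 ± 0.17, edgeR adjusted p = 0.00224), where 13.1% of genes were called higher. It was not called in B6 Aire +/- (0.11 ± 0.11, adjusted p = 0.838), +/Y86C (0.25 ± 0.09, 0.131) or +/C313X (1.07 ± 0.62, 0.998). Without the wild type at 10.1 CPM the last was 0.54 ± 0.25, again not called. No member was called in these 3 comparisons, in which edgeR called 0.48%, 3.37% and 0% of all genes. At an unadjusted p under 0.05 they held 0, 2 and 0 members, and DESeq2 called none either. Averaged over the 4 lines the heterozygous change of Sirt1 was 0.55 ± 0.15 (adjusted p = 0.00912), 0.41 ± 0.09 without that wild type (adjusted p = 0.00155), and 0.37 without the C313X line (adjusted p = 0.0941), against 9.29% of genes called higher.

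Homozygotes set against heterozygotes of their own line gave a Sirt1 change of 0.67 ± 0.10 in the null line (edgeR adjusted p = 5.05e-06) and 0.82 ± 0.09 for Y86C (4.19e-09). In these comparisons 16.3% and 16% of genes were called higher. For C442G the change was 0.34 ± 0.13 (adjusted p = 0.0697), with no member called by edgeR, 2 members at an unadjusted p under 0.05, 1 called by DESeq2 and 20.5% of genes called either way. For C313X it was 0.86 ± 0.61 (adjusted p = 0.41).

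On NOD, Sirt1 stood at 241, 248 and 266 CPM in Aire +/- and at 285, 326 and 345 in Aire -/-. The ranges lay apart, as for 9.26% of genes, but in the fit of the whole table the change of 0.49 ± 0.21 was not called (edgeR adjusted p = 0.144). Among the other settings it was called with these groups fitted alone (0.47 ± 0.10, edgeR adjusted p = 0.000891). Against all 8 NOD wild types, a different control, Aire -/- was called too (1.18 ± 0.17, edgeR adjusted p = 5.37e-06). Those wild types held 98.6 to 236 CPM, so the Aire +/- libraries lay above all of them as well. In the fit of the whole table no member was called, 2 had an unadjusted p under 0.05, DESeq2 called none, and 13.3% of all genes were called. In the +/C313Y comparison the wild types stood at 100.02, 134, 164, 205 and 236 CPM and the heterozygotes at 232, 239, 278 and 378. The lowest heterozygote lay just under the highest wild type, and the change was 0.87 ± 0.17 (edgeR adjusted p = 6e-04), where 6.37% of genes were called higher.

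The -/C313Y libraries held 184, 185 and 228 CPM of Sirt1 against 98.6, 127 and 127 in their wild types. All mutants lay above all wild types, as for 12.7% of genes, and the change was 0.88 ± 0.22 (edgeR adjusted p = 0.00342), where 9.83% of genes were called higher. In the V303M line the wild types stood at 146, 162 and 182 CPM, +/V303M at 101, 162 and 198, and V303M/V303M at 134, 201 and 244. The 3 genotypes overlapped, and the homozygous change was 0.28 ± 0.21 with a 95% interval from -0.14 to 0.70 (adjusted p = 0.979). The V303M comparisons held few calls of any gene: 0.0657% in homozygotes and 0% in heterozygotes and in homozygotes against heterozygotes. No member was among them by edgeR or DESeq2, and 0, 0 and 1 members had an unadjusted p under 0.05.

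**Figure D2:**
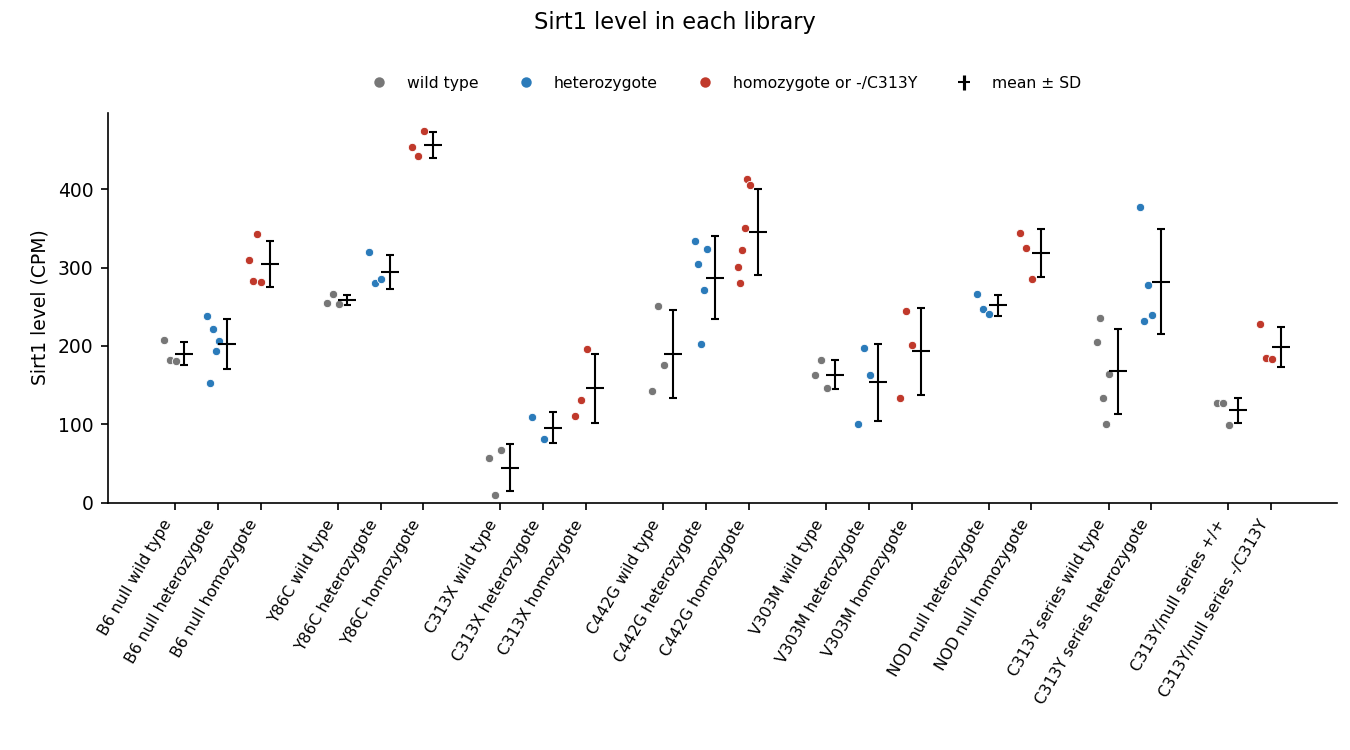
Sirt1 level in CPM (vertical axis, linear from 0) in each of 73 libraries, coloured by genotype, with the mean and SD of each group as a bar. Homozygous libraries lie above the wild types of their own line except for V303M. The lowest group mean, 44.7 CPM, is that of the C313X wild types, 1 of them at 10.1 CPM.

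Changes were also set against each other, between B6 lines, between strains and between both C313Y genotypes. No difference was called for any member in 79 tests over 9 such contrasts, by edgeR or DESeq2, and 7 of the 79 had an unadjusted p under 0.05. The lowest adjusted p was that of Sirt1 between C313X and null, 1.26 ± 0.42 with a 95% interval from 0.44 to 2.08 (edgeR adjusted p = 0.102). Without the C313X wild type numbered 7 it was 2.02 (adjusted p = 0.00759), while the other 12 fits that left out a library made no call. The same omission gave a call between C442G and C313X, from -0.93 ± 0.40 (adjusted p = 0.29) to -1.70 (adjusted p = 0.0331). Without the wild type numbered 6 these Sirt1 differences were 0.68 ± 0.26 and -0.35 ± 0.26, neither called. The Y86C change of Chd6 exceeded that of the null by 0.53 ± 0.19 (adjusted p = 0.135). The Sirt1 changes in NOD and B6 Aire -/- over Aire +/- differed by -0.18 ± 0.25, with a 95% interval from -0.66 to 0.31, and those in -/C313Y and +/C313Y by 0.02 ± 0.28 (-0.53 to 0.56). Of all genes 2% were called between Y86C and null, 2.65% between C313X and null, 2.94% between C442G and null, 0.433% between C313X and Y86C, 0.0137% between C442G and Y86C and 0.901% between C442G and C313X. The share was 5.75% between the heterozygous changes of C442G and null, 1.04% between NOD and B6, and 0.427% between -/C313Y and +/C313Y.

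Chd6 encodes a chromodomain helicase that remodels nucleosomes. In the B6 null line it stood at 61.8, 62.7 and 66.4 CPM in wild types, 66.9, 68.7, 72.3, 74.0 and 77.4 in Aire +/-, and 88.2, 92.1, 92.4 and 93.4 in Aire -/-. The 3 genotypes formed 3 separate ranges with little spread. In that line Aire +/- lay apart and above wild types for 3.04% of genes, and Aire -/- above Aire +/- for 9.37%. In the Y86C line it stood at 68.5, 81.2 and 94.0 CPM in wild types, 82.4, 87.9 and 108 in +/Y86C, and 135, 135 and 151 in Y86C/Y86C. Only the homozygotes lay apart there, and 11.7% of genes had Y86C/Y86C apart and above +/Y86C.

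In the C313X line Chd6 stood at 97.5, 108 and 109 CPM in wild types, 104 and 109 in +/C313X, and 124, 139 and 142 in C313X/C313X. In the C442G line the wild types stood at 69.1, 76.5 and 80.8 CPM and +/C442G at 74.7, 86.6, 88.1, 100.2 and 110.4. The C442G/C442G libraries ran from 92.6 over a median of 98.7 to 140.0 CPM. In both lines every homozygote lay above every wild type.

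The homozygous change of Chd6 was 0.62 ± 0.10 in the null line (edgeR adjusted p = 1.43e-05), 1.04 ± 0.12 for Y86C (8.2e-09), 0.57 ± 0.14 for C313X (0.0139) and 0.67 ± 0.14 for C442G (0.000122). The C313X call was lost without the wild type numbered 6 (adjusted p = 0.0545) or the homozygote numbered 1 (0.0645). Against heterozygotes the changes were 0.44 ± 0.09 in the null line (adjusted p = 0.000229), 0.78 ± 0.12 for Y86C (1.95e-06) and 0.59 ± 0.16 for C313X (0.0245), where 5.58% of genes were called higher. The last was lost in 4 of 5 fits that left out a library, with an adjusted p of up to 0.209. In +/C442G the change of 0.41 ± 0.14 (adjusted p = 0.0275) was lost under 6 of 12 other settings, and the mean heterozygous change over the 4 lines was 0.22 ± 0.07 (adjusted p = 0.0201). That call was lost without the +/Y86C library numbered 3, the +/C313X library numbered 8 or the C442G wild type numbered 86, with an adjusted p of up to 0.0726.

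On NOD no change of Chd6 was called with all libraries and the control of each comparison. Its level was 73.1, 77.2 and 77.6 CPM in Aire +/- and 75.1, 84.95 and 105 in Aire -/-, and the change was 0.37 ± 0.17 (edgeR adjusted p = 0.176). Among the other settings it was called only against all 8 NOD wild types (0.50 ± 0.14, edgeR adjusted p = 0.00615). In the +/C313Y comparison wild types ran from 51.7 to 82.3 CPM and heterozygotes from 68.8 to 95.5, a change of 0.25 ± 0.14 (adjusted p = 0.249). That change was called only without the libraries titled C313T (0.41 ± 0.15, edgeR adjusted p = 0.0413). The -/C313Y libraries held 63.5, 67.7 and 68.9 CPM against 58.3, 58.4 and 59.2 in their wild types. These ranges lay apart, as for 12.7% of genes, and the change of 0.31 ± 0.17 had an interval from -0.02 to 0.64 (adjusted p = 0.21). In V303M/V303M it was 0.22 ± 0.15 (adjusted p = 0.971). The NOD and B6 null changes of Chd6 differed by -0.07 ± 0.19, with an interval from -0.44 to 0.30, so a smaller response on NOD was not shown.

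Prkdc encodes the catalytic subunit of DNA-dependent protein kinase, which binds broken DNA ends with the Ku proteins. In the B6 null line it stood at 23.7, 26.6 and 29.4 CPM in wild types and at 19.2, 19.5, 21.6 and 22.9 in Aire -/-. In the C313X line it stood at 21.9, 22.0 and 30.3 CPM in wild types and at 12.3, 13.0 and 13.4 in C313X/C313X. In both lines all homozygotes lay below all wild types, as did those of 26.9% and 31.2% of genes.

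In the C442G line Prkdc stood at 20.6, 31.7 and 35.9 CPM in wild types, and C442G/C442G ran from 15.5 over a median of 17.1 to 25.3. In the Y86C line wild types held 25.1, 30.5 and 35.6 CPM and Y86C/Y86C 15.6, 20.8 and 27.4. Here the genotypes overlapped by 1 library on each side. The -/C313Y libraries held 16.6, 19.3 and 19.99 CPM against 20.4, 25.5 and 26.1, again apart and lower, as for 27.2% of genes.

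Prkdc was called lower in C313X/C313X (-0.70 ± 0.23, edgeR adjusted p = 0.0456) and C442G/C442G (-0.50 ± 0.19, adjusted p = 0.0334), where 15.2% and 23.1% of genes were called lower. Neither call was firm: the first was lost in all 6 fits without a library, the second in 6 of 9, with adjusted p of up to 0.118 and 0.216. It was not called in Aire -/- (-0.23 ± 0.18), Y86C/Y86C (-0.32 ± 0.19), -/C313Y (-0.23 ± 0.22), NOD Aire -/- (-0.14 ± 0.23), V303M/V303M (0.02 ± 0.19) or +/C313Y (0.28 ± 0.19). The mean over the B6 lines was called under all 32 other settings, with a largest adjusted p of 0.0177. As group means, the summed proliferation markers fell from 567 CPM in wild types to 340 in Aire -/-. In Y86C/Y86C they fell from 413 to 270, in C313X/C313X from 469 to 310 and in C442G/C442G from 364 to 263. In the V303M line their sum was 741 and 752. The sum fell most in the null line, where the change of Prkdc was the smallest of the B6 lines. The part of these markers in the result was not tested. Prkdc lies on chromosome 16 from 15637866 to 15842235, plus strand, and Mcm4, a replication helicase subunit, lies head to head with it on the minus strand from 15623897 to 15637400. Mcm4 itself was at 0.15 ± 0.10 in the B6 mean (adjusted p = 0.19).

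**Figure D3:**
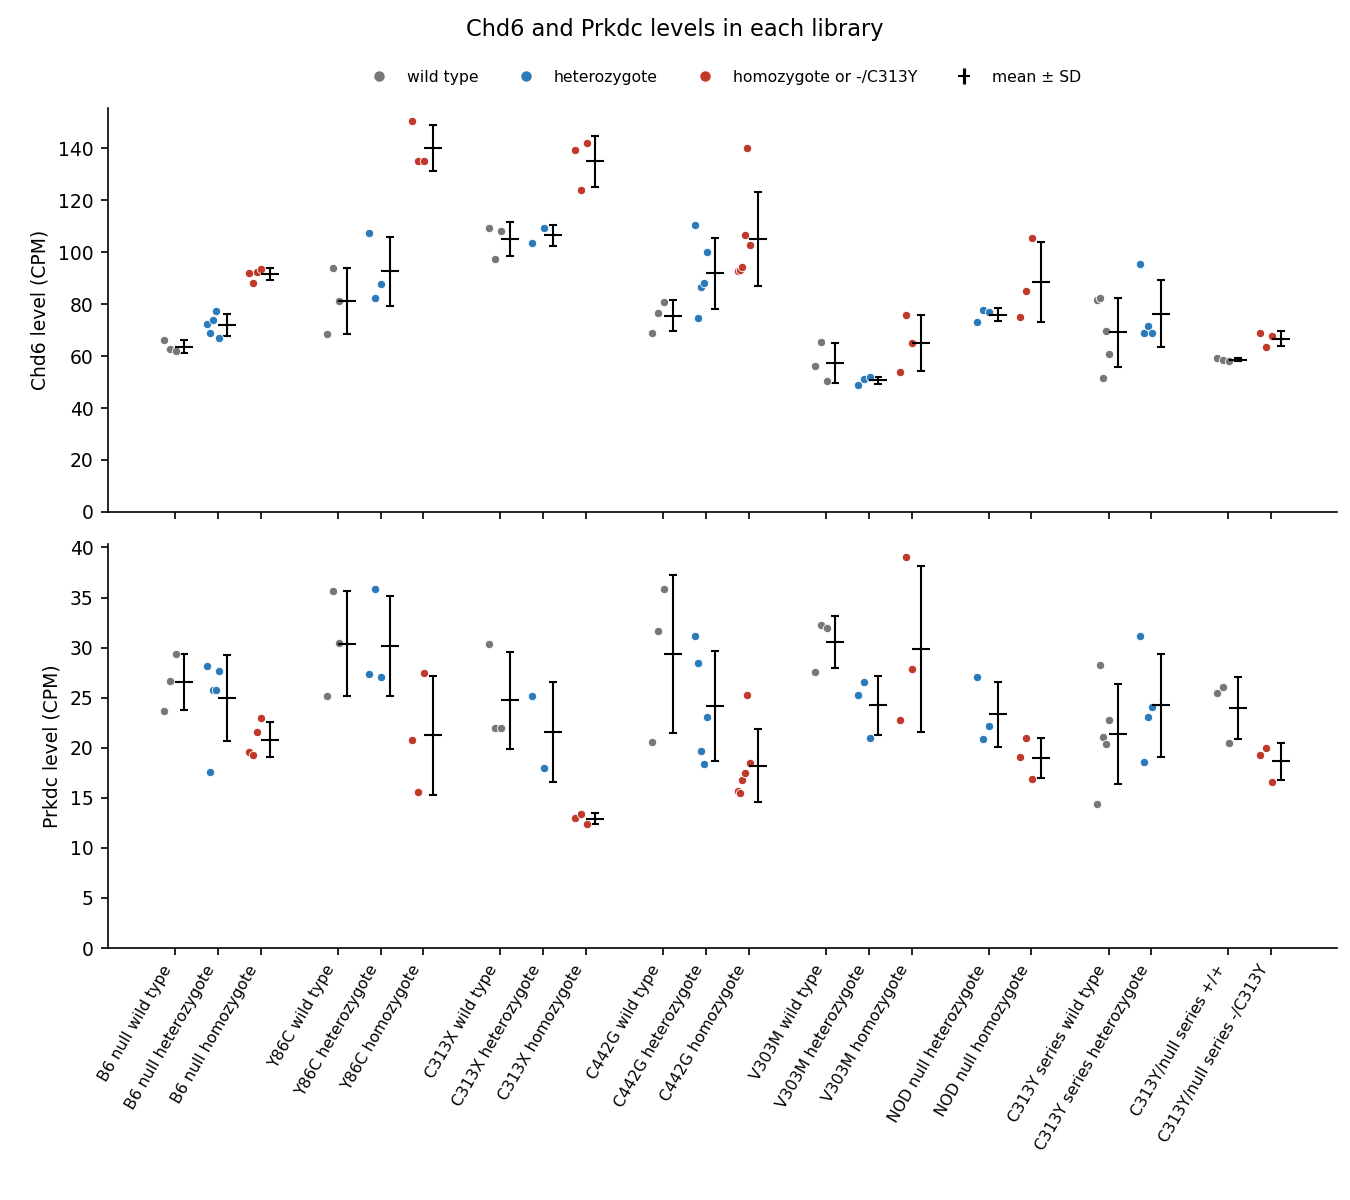
Chd6 (upper panel) and Prkdc (lower panel) level in CPM (vertical axes, linear from 0) in each of 73 libraries, coloured by genotype, with mean and SD per group. Chd6 homozygotes of the 4 B6 lines lie above their wild types, and Prkdc of C313X/C313X at 12.3 to 13.4 CPM is the lowest group.

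Among 21 genes of DNA break signalling and repair, 5 rose and 12 fell in the B6 homozygous mean, with a median of -0.27. The shares over all genes were 32% called higher and 32.3% called lower. Rad50, of the complex that senses and trims ends, rose most clearly (1.83 ± 0.07, edgeR adjusted p = 7.11e-28), followed by Tdp1 (0.78 ± 0.08) and Tdp2 (0.46 ± 0.13), which free DNA ends from trapped topoisomerases. Lig1, the ligase of DNA replication (-0.76 ± 0.10), Xrcc5, the larger Ku subunit (-0.74 ± 0.11), and Nhej1, a factor of end joining (-0.85 ± 0.13), fell. Xrcc6, the other Ku subunit, was not called (-0.16 ± 0.09). Most measured proliferation markers also fell in the B6 homozygous mean, and their part in these changes was not tested.

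Top1 and Top2b encode topoisomerases, which relax DNA by breaking 1 strand and both strands. Top1 stood at 55.0, 60.8 and 73.3 CPM in wild types of the null line and at 45.1, 45.6, 55.5 and 55.7 in Aire -/-. In the C442G line it ran from 27.3 to 48.6 CPM in wild types and from 26.9 to 39.6 in C442G/C442G. The ranges overlapped in both. In 3 of the 8 comparisons that share no library they lay apart and lower: 50.9 to 59.1 CPM in Y86C/Y86C against 62.4 to 89.3, 27.1 to 30.7 in C313X/C313X against 31.1 to 39.5, and 53.3 to 57.9 in NOD Aire -/- against 64.2 to 85.6 in Aire +/-. The ranges of 44.6%, 31.2% and 29.3% of genes did so there. After TMM, edgeR's scaling between libraries, no comparison called Top1: its 8 changes ran from -0.27 to 0.11, and the B6 mean was -0.04 ± 0.08, with a 95% interval from -0.19 to 0.12.

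Top2b stood at 49.02, 49.8 and 54.3 CPM in wild types of the Y86C line and at 32.9, 35.6 and 37.4 in Y86C/Y86C. It stood at 39.2, 39.4 and 40.8 CPM in the wild types set against -/C313Y, and at 24.4, 28.3 and 30.95 in those mutants. Both pairs lay apart and lower, as for 44.6% and 27.2% of genes. After TMM neither was called (-0.29 ± 0.14, edgeR adjusted p = 0.0783, and -0.39 ± 0.20, 0.171). The C313X line was again low and wide, with 2.67, 15.2 and 23.0 CPM in wild types, 12.3 and 39.9 in +/C313X, and 9.90, 11.3 and 23.4 in C313X/C313X. The lowest value is from the wild type numbered 6, and the B6 homozygous mean was 0.01 ± 0.16 with it and -0.15 ± 0.13 without it, neither called. Of the other topoisomerases, Top3b rose (0.27 ± 0.06), Top2a, which cells make when they divide (-0.60 ± 0.12), and the mitochondrial Top1mt (-0.22 ± 0.10) fell, and Top3a was not called. Without the wild type numbered 6, 1 of the 4 fell. With it, 32% of all genes were called higher in the B6 homozygous mean and 32.3% lower. Top1 lies on chromosome 2 from 160645888 to 160722764 and Top2b on chromosome 14 from 16365179 to 16435462, both on the plus strand. Top2b overlaps Rarb on the other strand by 4624 bases, and reads of the pair cannot be told apart if counting ignored strand, which the sources used here do not give.

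Mbd1 encodes a methyl-CpG binding protein, and Atf7ip the adaptor that ties it to the histone methyltransferase SETDB1. Mbd1 stood at 44.5, 51.5 and 53.5 CPM in C313X wild types and at 35.4, 35.8 and 35.8 in C313X/C313X. Atf7ip stood at 65.8, 70.8 and 72.7 CPM in the same wild types and at 46.2, 52.5 and 53.7 in the same homozygotes. Both pairs lay apart and lower on the CPM scale, as for 31.2% of genes. The fitted changes of -0.28 ± 0.17 and -0.26 ± 0.16 were not called (edgeR adjusted p = 0.262 and 0.265).

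In the other direction, Mbd1 stood at 29.2, 30.4 and 32.4 CPM in V303M wild types and at 32.5, 34.2 and 37.9 in V303M/V303M, apart and higher by a small margin, as for 4.07% of genes (0.23 ± 0.18, edgeR adjusted p = 0.979). It was also apart and lower in NOD Aire -/- (20.2 to 22.1 CPM against 24.9 to 28.8 in Aire +/-) and in -/C313Y (15.4 to 23.8 against 24.9 to 27.5). There 29.3% and 27.2% of genes lay apart and lower. So the ranges of Mbd1 lay apart and lower in 3 of the 8 comparisons and higher in 1, with no call. Its B6 mean was -0.06 ± 0.08, with a 95% interval from -0.22 to 0.10. Atf7ip stood at 33.6, 37.5, 44.1, 45.6 and 51.1 CPM in B6 Aire +/- and at 39.5, 47.3, 52.2 and 60.1 in Aire -/-. These overlapped, and a change of 0.34 ± 0.13 was called (adjusted p = 0.0463) but lost under 9 of 13 other settings. Its B6 homozygous mean was 0.05 ± 0.08, with an interval from -0.09 to 0.20. Mbd1 lies on chromosome 18 from 74267605 to 74282732 and Atf7ip on chromosome 6 from 136506167 to 136610862, both on the plus strand.

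Of 10 measured other methyl-CpG readers and SETDB1 partners, 2 rose and 4 fell in the B6 homozygous mean, with a median of -0.11. Atf7, a transcription factor that ATF7IP binds, was among those that rose (0.31 ± 0.09). Mbd3, of the NuRD complex (-0.29 ± 0.05), Mbd2, its methyl-binding relative (-0.29 ± 0.07), and Uhrf1, which keeps methylation through replication (-0.43 ± 0.12), fell. Setdb1 itself was not called (-0.14 ± 0.09). Over all genes, 32% were called higher in that mean and 32.3% lower.

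Hipk2 encodes a nuclear kinase that phosphorylates AIRE, and its level differed widely between tables. In the B6 null line it stood at 7.29, 9.46 and 10.8 CPM in wild types, 3.75, 5.26, 7.69, 8.42 and 10.2 in Aire +/-, and 6.01, 11.6, 13.3 and 13.4 in Aire -/-. Homozygotes were called above heterozygotes (0.75 ± 0.28, edgeR adjusted p = 0.0388) although the ranges overlapped, a call lost under 7 of 13 other settings. In the Y86C line all 9 libraries lay between 0.553 and 2.46 CPM, and the gene failed the filter.

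The shared NOD table showed the widest gap of Hipk2. The Aire +/-, Aire -/-, +/C313Y and their 5 wild types held 0 to 2.18 CPM, whereas the wild types and mutants of the -/C313Y comparison held 8.29, 15.9 and 30.1 CPM and 6.57, 9.52 and 14.5 CPM. Wild types of the same strain and genotype label thus differed by their title form, and the cause was not tested. The -/C313Y change was -0.72 ± 0.42 against the wild types of its title form (edgeR adjusted p = 0.249) and 2.12 (adjusted p = 0.000356) against all 8 NOD wild types, so its direction depends on that choice. In 2 libraries no tag was counted, which allows levels of up to 0.812 and 1.131 CPM (3 counts, counting error only). Of the other HIPK kinases, Hipk3 (0.34 ± 0.06) and Hipk1 (0.26 ± 0.08) rose in the B6 mean and Hipk4 fell by 1.93 ± 0.40 on the log2 scale. That mean held 32% of all genes called higher and 32.3% called lower. Hipk2 lies on chromosome 6 from 38694390 to 38876165, minus strand, and overlaps Tbxas1 on the other strand by 762 bases.

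**Figure D4:**
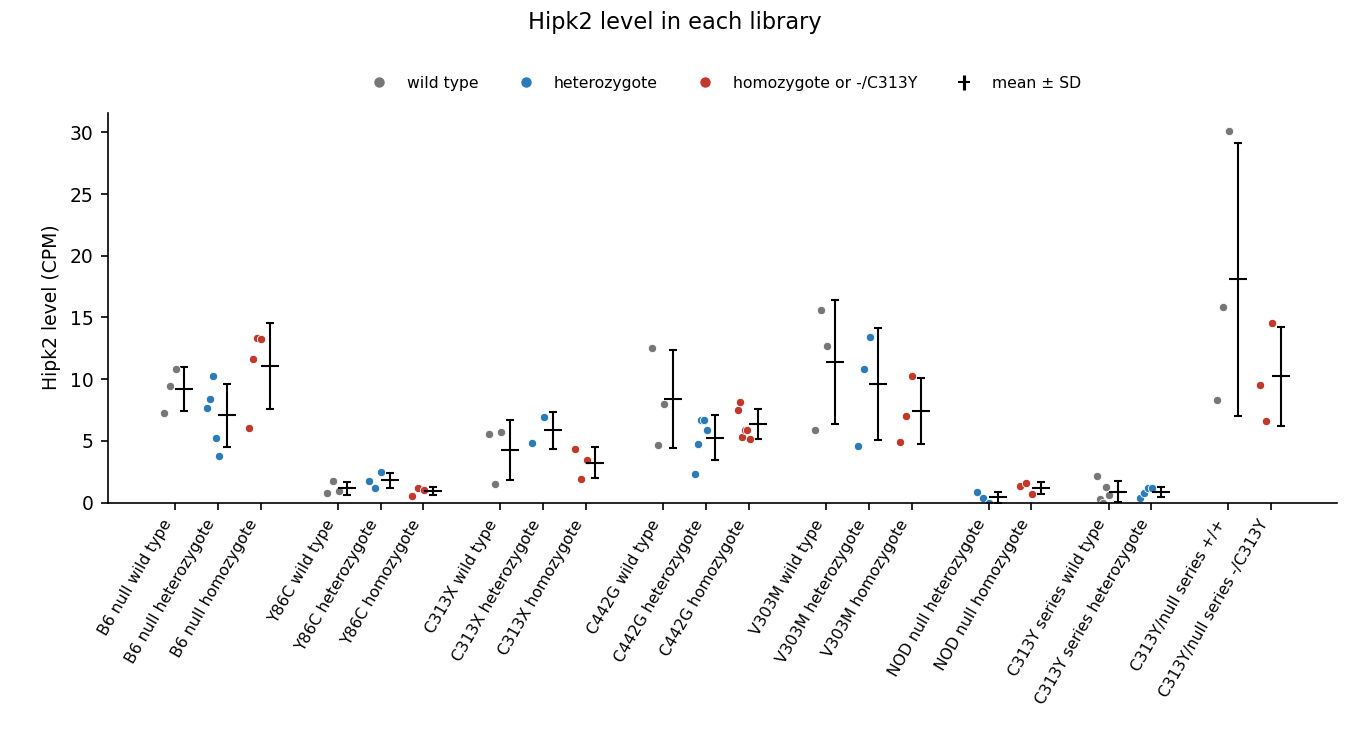
Hipk2 level in CPM (vertical axis, linear from 0) in each of 73 libraries, coloured by genotype, with mean and SD per group. Levels of 0 to 2.18 CPM in most of the shared NOD table stand beside 6.57 to 30.1 CPM in the libraries of the -/C313Y comparison.

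Cdk9 encodes the kinase of P-TEFb, which releases paused RNA polymerase II and which AIRE is known to bind. Its tags were too few to compare: 293 in 73 libraries, from 0 to 5.52 CPM. In 6 libraries no tag was counted, which allows levels of up to 0.716 to 2.10 CPM. In NOD Aire -/- it stood at 0, 0 and 0.868 CPM against 1.18, 2.44 and 2.65 in Aire +/-, a difference that was not tested because the gene failed the filter. The joint B6 fit, whose filter it passed, gave -0.54 ± 0.42, with a 95% interval from -1.35 to 0.28 (edgeR adjusted p = 0.262), so a fall by more than 2-fold and a small rise were both within reach of the data. Cdk9 lies on chromosome 2 from 32705784 to 32713076, minus strand.

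The rest of the pause release and elongation machinery was better covered, and 18 of 32 measured genes rose in the B6 homozygous mean while 1 fell, with a median of 0.21. Of all genes, 32% were called higher in that mean and 32.3% lower. Ell2, of the super elongation complex (0.88 ± 0.08, edgeR adjusted p = 3.27e-14), Paf1, of the PAF elongation complex (0.54 ± 0.06), and Supt5, of the pausing factor DSIF (0.42 ± 0.05), had the lowest adjusted p. Hexim1, which holds P-TEFb inactive, fell by 0.97 ± 0.30 on the log2 scale. Without the C313X wild type numbered 6 the counts were 16 and 2. In single lines fewer passed: 6 rose and 0 fell of 30 in Aire -/-, 7 and 1 of 30 in Y86C/Y86C, 0 and 0 of 31 in C313X/C313X, and 7 and 0 of 32 in C442G/C442G. In the same order, 17.7%, 21.7%, 7.82% and 19.5% of all genes were called higher, and 18.9%, 27.9%, 15.2% and 23.1% lower.

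Relatives of Sirt1 and Chd6 were read in the same B6 homozygous mean, in which 32% of all genes were called higher and 32.3% lower. Of 6 other sirtuins 4 rose and 0 fell, with Sirt7 at 0.33 ± 0.07, Sirt4 at 0.64 ± 0.14 and Sirt2 at 0.19 ± 0.06. Of 9 other CHD genes 3 rose and 2 fell, with Chd3 at 0.35 ± 0.06, Chd2 at 0.34 ± 0.08 and Chd8 at 0.16 ± 0.06 above 0, and Chd4, the NuRD helicase, at -0.38 ± 0.06 and Chd5 at -2.41 ± 0.38. Among 28 measured further proteins reported with AIRE, 11 rose and 6 fell, with a median of 0.03. Ddx17, an RNA helicase (0.57 ± 0.05), Daxx, a histone chaperone and corepressor (0.47 ± 0.07), and Stag2, a cohesin subunit (0.66 ± 0.11), rose, and Chd4, Xrcc5 and H2afx, the histone that marks breaks (-0.45 ± 0.07), fell. These lists share genes: Chd4, Xrcc5, Top2a and H2afx are each counted in 2 or more.

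**Figure D5:**
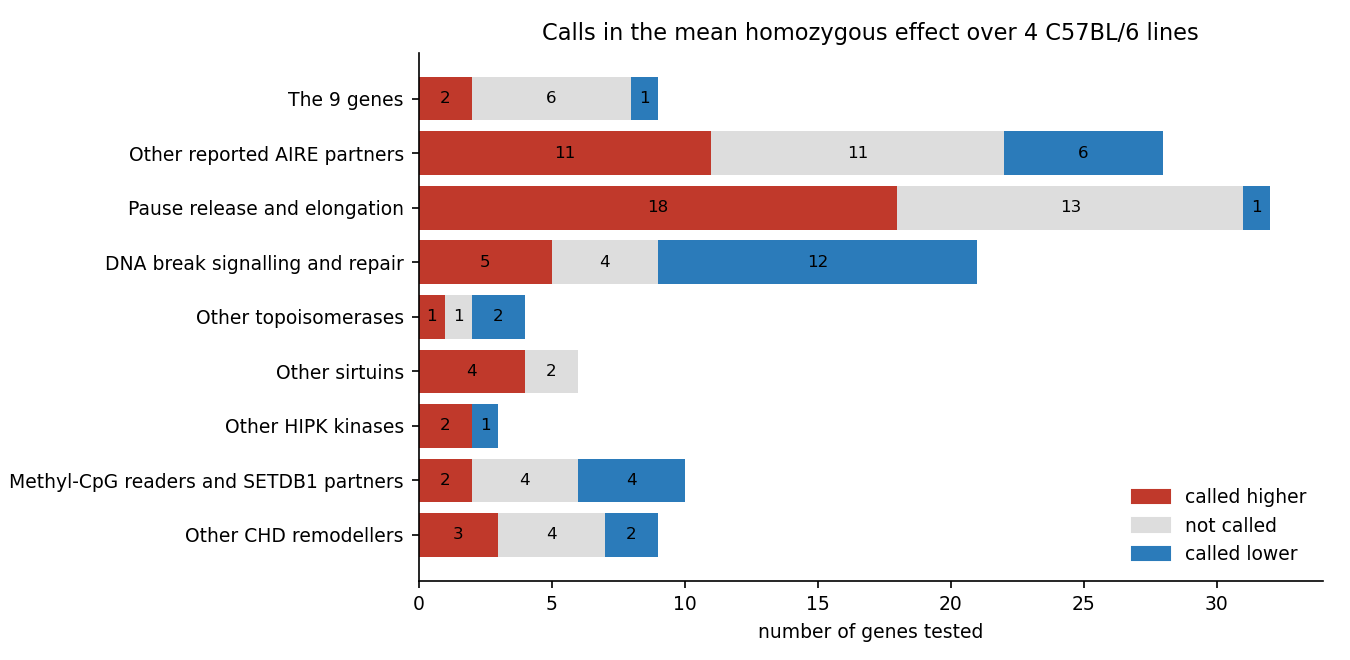
Number of genes (horizontal axis) called higher, called lower or not called in the mean homozygous change over 4 B6 lines, for the 9 members and 8 lists of related genes (vertical axis). Pause release and elongation has 18 higher and 1 lower of 32, DNA break signalling and repair 5 higher and 12 lower of 21, and the 9 members 2 higher and 1 lower. Over all genes tested, 32% were called higher and 32.3% lower.

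Over the 21 group means, each centred on its table, Pearson's r between members was 0.78 for Chd6 and Sirt1, 0.76 for Atf7ip and Top1, 0.73 for Top2b and Top1, and 0.71 for Mbd1 and Prkdc. With Aire it was 0.77 for Chd6, 0.67 for Sirt1, -0.77 for Mbd1 and -0.85 for Prkdc. These are descriptions: the points share genotypes, wild types and library depth. Among 9919 genes, those most like Sirt1 were Pld1 (r = 0.98) and Mpp7 (0.97), most like Chd6 were Fam102b (0.95) and Rfx5 (0.93), and most like Prkdc were Rhbg (0.95) and Fmo1 (0.95). Top1 was most like Wsb1 (0.97) and Huwe1 (0.95), Top2b like G3bp2 (0.93) and Cstf2 (0.92), Mbd1 like Blm (0.92) and Slamf8 (0.92), and Atf7ip like Ubr2 (0.96) and Dbnl (0.92). Hipk2 and Cdk9 were under the 5 CPM asked of each table.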

How the data were processed

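The authors deposited 6 tables of raw counts per gene, whole numbers that list only genes whose highest count in the table is at least 6. The tools named, per the submitters' processing notes, are STAR 2.4.2a, HTSeq, DESeq2, cutadapt and bcl2fastq, and the build is mm10. Settings, annotation, strand and the collapse of molecular barcodes are not given in the sources used here. Titles and genotype labels gave the groups. In R 4.3.3, edgeR 4.0.16 fitted each table (robust quasi-likelihood F test, TMM factors, filterByExpr on groups, 1 mean per group, Benjamini-Hochberg adjustment over all genes tested). The 4 B6 tables were fitted jointly over shared genes for mean changes and differences between lines, and the B6 null and shared NOD tables for the strain difference. An SE is the log2 change over the root of F. CPM was computed from the deposited counts and used for levels only. Floors of 3 counts cover counting error only. The other settings tried were no filter, RLE factors, DESeq2 1.42.0, only the compared groups, each library left out, other reference libraries and a replicate block, and, chosen after seeing the data, the B6 mean without the C313X line.

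The members and the 15 gene lists were chosen with earlier results of these data known. Genes named besides the members were up to 3 each way per list with the lowest adjusted p in the B6 homozygous mean, and per member the 2 with the highest Pearson r among genes of at least 5 CPM in each table. Of the genes so named, 1 is not reported here. Xrcc6, Setdb1, Top3a and Mcm4 fall outside that rule and were chosen after their values were seen. On simulated counts, the fits of 3 against 4 libraries in the B6 null line recovered 34.8% of genes changed 1.5-fold and 76.2% of those changed 2-fold among 12301 genes, those of C313X 0% and 32.8% among 13059, and the B6 mean 62.7% and 93.9% among 13979. Few genes were changed: in the null line 66 by 1.5-fold, 63 by 2-fold and 64 by 4-fold. In the data 36.6%, 23.1% and 64.3% of genes were called in these 3 comparisons. The adjusted threshold was therefore stricter in the simulation, and these shares do not give the power of the tests on the data.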

Additional observations from a re-analysis of the deposited data

Results flagged for a closer look

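In 7 of 54 sets of a member and a group of 4 to 10 libraries, 1 library lay far from the others, by a test that chance passes in about 1 set of 20. All values are CPM. In the C442G homozygote numbered 92 both Chd6 (140.0, the other 5 from 92.6 to 107) and Prkdc (25.3, the others 15.5 to 18.5) were highest. Prkdc was lowest in 1 B6 Aire +/- library (17.5, the others 25.8 to 28.2), and Cdk9 highest in another of that group (3.90, the others 0 to 1.03). Mbd1 was highest in the +/C442G library numbered 81 (33.4, the others 21.9 to 24.2). On NOD, Atf7ip was highest in the wild type numbered 78 of the +/C313Y comparison (79.9, the others 55.0 to 60.3) and Chd6 in the +/C313Y library numbered 50 (95.5, the others 68.8 to 71.7).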

How the results depend on the processing

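Of 3521 values of members under other settings, 3452 kept their side of the threshold, 52 lost a call and 16 gained one. The remaining 1 gained a call in the other direction. It was Hipk2 in -/C313Y, -0.72 against its own wild types and 2.12 against all 8 NOD wild types (edgeR adjusted p = 0.000356). Direction was compared only where a value was called, so values called under neither setting may have changed sign. The number of members called moved as follows. By DESeq2 it was 2 in B6 Aire -/- over Aire +/- (4 by edgeR), 1 in +/C442G (2) and 1 in C442G homozygotes over heterozygotes (0). With RLE factors it was 1 in +/C442G. With the compared groups alone it was 2 in B6 Aire -/- over Aire +/-, 2 in C313X homozygotes over heterozygotes (1), 1 in C442G homozygotes over heterozygotes and 1 in NOD Aire -/- (0). Without a filter it was 1 in C313X/C313X (3), and over 3 lines without C313X it was 1 in the mean heterozygous change (2). With all 8 NOD wild types it was 4 in -/C313Y (1) and 2 in NOD Aire -/- set against those wild types (0), and without the libraries titled C313T it was 2 in +/C313Y (1). Leaving out each library gave 2 to 4 in B6 Aire -/- over Aire +/-, 0 to 1 in C313X homozygotes over heterozygotes, 1 to 1 in C313X/C313X, 1 to 2 in +/C442G, 0 to 1 in C442G homozygotes over heterozygotes, 0 to 1 between C313X and null, 0 to 1 between C442G and C313X and 1 to 2 in the mean heterozygous change. The cause of these moves was not tested. Where a +/C313X library was left out, the lone one was assumed to vary like the other groups.

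Numbers of all genes called differed by over 1.5 times between edgeR and DESeq2 for C313X against Y86C (63 and 119), C442G against Y86C (2 and 6), C442G against C313X (131 and 243), -/C313Y against +/C313Y (59 and 182), V303M/V303M (9 and 42), +/V303M (0 and 2), V303M homozygotes over heterozygotes (0 and 6) and +/Y86C (449 and 254). With the compared groups alone they were 1393 in place of 2403 for +/C313Y, 1 in place of 9 for V303M/V303M and 1 in place of 0 for V303M homozygotes over heterozygotes. Against all 8 wild types NOD Aire -/- gave 4896 in place of 1843. No other scaling moved the median of all genes by more than 0.07.

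Of the compared groups, those of the -/C313Y comparison share 3 replicate numbers, and the Y86C wild types and heterozygotes share 1, too few for a block. Deviations of same-numbered libraries correlated at 0.073, -0.052 and 0.204, and those of different numbers at -0.179 to 0.121. With 3 libraries per group these values cannot exclude pairs. The main fit did not take the numbers as pairs. With the replicate block 1 member was called as before, Sirt1 (0.88 ± 0.13, edgeR adjusted p = 2.37e-06), and 3613 genes in place of 3137.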

Other observations

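The library in no group is titled wild type but carries the genotype label Aire -/-. It held 179 CPM of Sirt1, 86.5 of Chd6, 27.3 of Prkdc, 50.7 of Top1, 41.2 of Top2b, 38.3 of Mbd1, 48.2 of Atf7ip, 4.47 of Hipk2, 0.994 of Cdk9 and 2264 of Aire.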
